A study of Mus musculus with 2 samples.

Results

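The 8 genes described here encode transcription factors that direct the making of fat cells: Pparg, Cebpa, Cebpb, Ebf1, Ebf2, Ebf3, Zfp423 and Klf15. They were taken by symbol from the 27998 genes of the table, and each symbol matched exactly 1 gene. Their unique molecular identifier (UMI) counts were read from single cells of the whole mesentery, the fold of tissue that carries vessels and fat to the gut. The mice were 2 untreated wild-type males of the inbred strain C57BL/6N, and each gave 1 library. Their age at harvest is not given in the sources. Liberase DH, which holds collagenases, freed the cells, and the Chromium instrument captured them with version 2 of its 3′ chemistry. Both animals form a single untreated group, so the comparisons are between cell classes within the animals.

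PPARG is a nuclear receptor that works with C/EBPα, the product of Cebpa, to switch on the genes of the mature fat cell, and each keeps the other expressed. C/EBPβ, the product of Cebpb, acts earlier in the cascade and helps to induce both, and it also serves immune cells and the acute-phase response. EBF1, EBF2 and EBF3 are early B-cell factors that act in mesenchymal cells, with EBF1 also required for B cells and EBF2 known from brown and beige fat precursors. ZFP423 is a zinc-finger protein that marks committed preadipocytes, and KLF15 is a Krüppel-like factor that rises late in fat cell differentiation. Mature fat cells float and are large, so digests of this kind are usually rich in precursors and poor in fat cells.

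On GRCm38, the assembly that mm10 names, Pparg lies at chr6:115360951-115490399 on the plus strand and Klf15 at chr6:90462576-90475238 on the plus strand. Cebpa lies at chr7:35119293-35121928 on the plus strand, Ebf3 at chr7:137193673-137314445 on the minus strand, and Cebpb at chr2:167688915-167690418 on the plus strand. Ebf1 lies at chr11:44617317-45008091 and Ebf2 at chr14:67233292-67430918, both on the plus strand, and Zfp423 at chr8:87661810-87959595 on the minus strand. RefSeq start sites on GRCm38.p6 were available for 7 of the 8 genes. Pparg has 3 of them, and a 3′ count cannot tell transcripts from the 3 starts apart. The 250 bases before each Pparg start are shown with those of Cebpa and Cebpb, its partners in the cascade, because these 3 genes form the core of the cascade. All are on the plus strand, and capitals mark matches on either strand to the C/EBP motif TTGCNNAA, the GC box GGGCGG or the TATA box TATAAA.
Pparg start 1, chr6:115360894-115361143: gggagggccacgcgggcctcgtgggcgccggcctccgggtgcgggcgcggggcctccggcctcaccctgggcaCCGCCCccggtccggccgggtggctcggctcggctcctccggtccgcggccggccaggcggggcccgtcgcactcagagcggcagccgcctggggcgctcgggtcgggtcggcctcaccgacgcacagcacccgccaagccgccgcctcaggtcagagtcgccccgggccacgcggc
Pparg start 2, chr6:115362099-115362348: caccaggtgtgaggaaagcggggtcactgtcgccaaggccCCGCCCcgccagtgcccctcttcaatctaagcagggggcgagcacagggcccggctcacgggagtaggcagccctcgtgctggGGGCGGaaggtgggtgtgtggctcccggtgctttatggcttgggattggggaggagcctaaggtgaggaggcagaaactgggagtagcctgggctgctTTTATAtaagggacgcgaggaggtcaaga
Pparg start 3, chr6:115421816-115422065: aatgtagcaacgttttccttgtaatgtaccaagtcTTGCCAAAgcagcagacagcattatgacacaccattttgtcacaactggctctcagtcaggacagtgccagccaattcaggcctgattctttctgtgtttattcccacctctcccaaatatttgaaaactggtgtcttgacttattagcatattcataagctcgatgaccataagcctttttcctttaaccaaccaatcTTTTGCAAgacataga
Cebpa, chr7:35119043-35119292: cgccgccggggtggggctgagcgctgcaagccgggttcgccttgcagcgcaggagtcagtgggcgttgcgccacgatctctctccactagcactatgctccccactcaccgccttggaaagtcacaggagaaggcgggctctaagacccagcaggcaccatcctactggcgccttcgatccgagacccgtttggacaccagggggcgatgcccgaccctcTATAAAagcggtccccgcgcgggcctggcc
Cebpb, chr2:167688665-167688914: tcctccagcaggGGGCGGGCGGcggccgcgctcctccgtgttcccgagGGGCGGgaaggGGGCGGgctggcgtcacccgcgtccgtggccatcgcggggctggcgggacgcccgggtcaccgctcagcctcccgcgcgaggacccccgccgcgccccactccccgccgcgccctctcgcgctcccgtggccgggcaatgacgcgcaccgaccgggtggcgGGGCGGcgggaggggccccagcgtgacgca
The third Pparg window held 2 C/EBP matches, with first bases at -215 and -16 from the start, and the other 2 Pparg windows held none. It lies before Pparg-201 of the GENCODE M21 annotation, and the second window lies before Pparg-206 and Pparg-203 and held a TATA box match at -29. The Cebpa window held a TATA box match at -30, and the Cebpb window 5 GC box matches, of which the pair at -238 and -234 overlap. Of 32851 mouse windows of this length, 9.56% held the C/EBP letters, 32.7% the GC box and 12.4% the TATA box. The EBF letters, TCCC and GGGA with 2 bases between them, were in 0.779% of all windows and in none of the windows of the 7 genes. A match describes letters and is not a bound site.

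Library 1 held 1517 barcodes with 5137671 UMIs and library 2 held 1687 barcodes with 5563521 UMIs, and no barcode sequence was shared. After filtering, 3100 cells remained, in 11 classes named from markers, with 30 cells left unnamed. Fibroblast-like cells numbered 460 in library 1 and 530 in library 2, at 31.8% and 32.0% of cells. Their 7 fibroblast markers summed to 18979 and 17852 CPM, counts scaled to a total of 1000000, in the libraries, against 14032 and 13056 CPM in mesothelial-like cells and 75.1 and 521 CPM in T-like cells. No cluster was named for fat cells. The endothelial-like cluster also had 3 adipocyte markers above 2-fold, the number needed for a name, and fat cells were its next-best class. The 8 adipocyte markers summed to 5.77 and 0.609 CPM in fibroblast-like cells, with Plin1 and Lep at 0, against 265 and 513 CPM in endothelial-like cells and 130 and 149 CPM in pericyte-like cells. Pericyte-like cells also held 7142 and 6951 CPM of the 11 endothelial markers, and 156 of their 158 cells had such a UMI. The 8 genes and 35 further regulators of fat cell formation were kept out of the clustering, so that they did not shape the classes.

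The 8 genes differed in how their UMIs were divided between fibroblast-like cells and other classes. In the 3100 cells, Ebf2 had 514 UMIs, of which 80.9% were in fibroblast-like cells, and Ebf1 had 6241 with 64.5% there. Cebpb had 10038 UMIs with 44.1% in fibroblast-like cells. Pparg had 246 UMIs and 9.35% of them were in fibroblast-like cells. Cebpa had 278 with 28.8%, Ebf3 140 with 42 of them there, Zfp423 68 with 55.9% and Klf15 43 with 25.6%. Fibroblast-like cells made up 31.8% and 32.0% of the cells in the libraries, and the shares of Cebpa, Ebf3 and Klf15 were below that. Zfp423 and Klf15 did not pass the filter on low counts, so 6 genes were tested. On the strand opposite to Cebpb, Tmem189 overlaps it and had 491 UMIs over all barcodes, and the sources do not give whether counting used strand. The antisense genes that overlap the other members and are in the table had at most 4 UMIs.

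**Figure D1:**
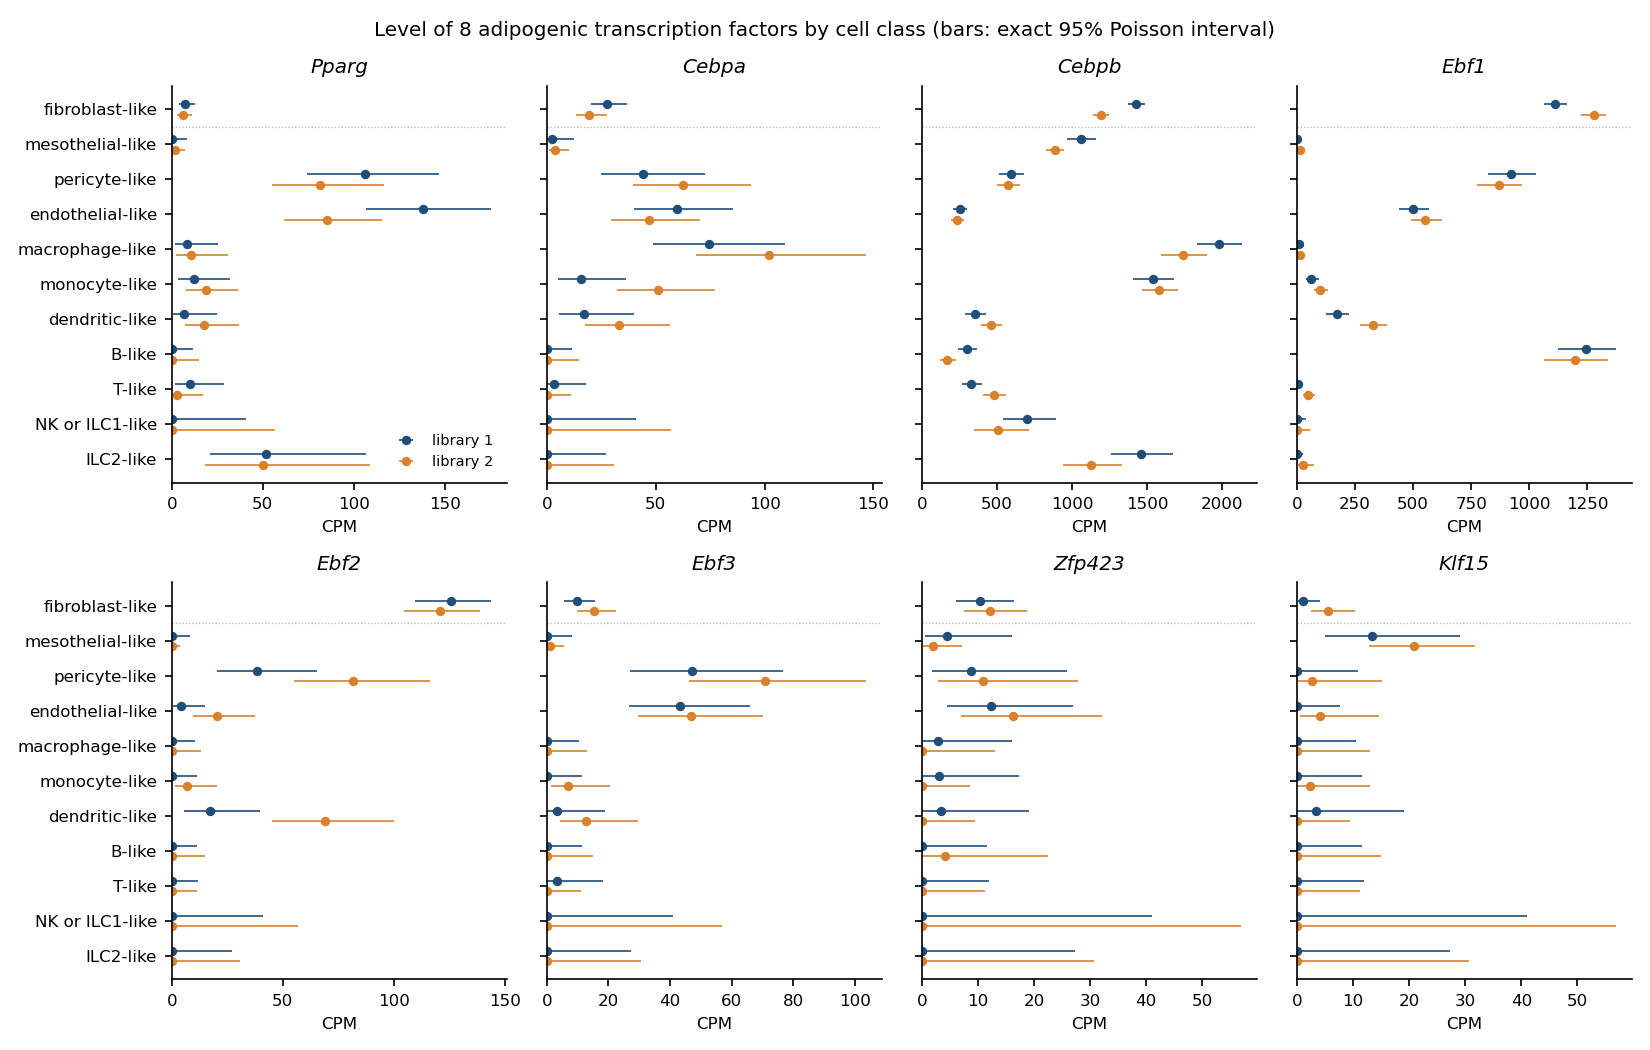
Level of each gene in CPM (x axis, linear, a separate scale per gene) in the 11 cell classes, with fibroblast-like cells above the dotted line; points are the 2 libraries and bars are exact 95% Poisson intervals, which cover counting error only. Ebf2 is highest in fibroblast-like cells at 126 and 121 CPM, while Pparg stands at 7.50 and 6.09 CPM there, against 138 and 85.4 CPM in endothelial-like cells.

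Pparg was scarce in fibroblast-like cells and was carried mainly by vessel-associated classes. It stood at 7.50 CPM in library 1 and 6.09 CPM in library 2 of fibroblast-like cells (6.79 ± 0.992, SD, n = 2), from 13 and 10 UMIs. Endothelial-like cells had 138 and 85.4 CPM (112 ± 37.1, SD, n = 2), and pericyte-like cells had 106 and 81.5 CPM (93.8 ± 17.3, SD, n = 2). The libraries of the last 2 classes overlapped each other, and both lay far above fibroblast-like cells. ILC2-like cells, the group 2 innate lymphoid cells, followed at 51.8 and 50.0 CPM, but from only 7 and 6 UMIs, with Poisson intervals of 20.8 to 107 and 18.3 to 109 CPM. ILC2-like cells held no UMI of the 8 adipocyte markers. The endothelial markers summed to 228 and 216 CPM in fibroblast-like cells, against 66.6 and 117 CPM in ILC2-like cells. Below ILC2-like cells, monocyte-like cells had 12.5 and 18.6 CPM, dendritic-like cells 6.83 and 17.8, and macrophage-like cells 8.62 and 10.6. B-like and NK or ILC1-like cells had 0 UMIs, which allows up to 9.41 and 12.1 CPM in the libraries of B-like cells at the limit of 3 counts.

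In edgeR's quasi-likelihood test with Benjamini-Hochberg adjustment, Pparg was lower in fibroblast-like than in endothelial-like cells by a log2 fold change of -3.88 (SE 0.32, adjusted p = 9.36e-14), in both libraries. Against pericyte-like cells it was lower as well, with -3.54 (SE 0.36, edgeR adjusted p = 3.37e-11). Against the mean of the other 10 classes, a mean of logarithms in which B-like and NK or ILC1-like cells weigh as much as endothelial-like cells, it was not called, at -0.19 (edgeR adjusted p = 0.849). Summing the other classes over cells gave a log2 fold change of -2.13, which was called (edgeR adjusted p = 6.62e-07). The arithmetic mean of the other classes was 33.3 and 26.9 CPM, above fibroblast-like cells in both libraries.

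The vessel-associated classes were the highest in both Pparg and adipocyte markers, and Pparg was also read in cells with no such marker. In library 2 of both classes Pparg was lower and the markers higher, but the Poisson intervals of Pparg overlapped between libraries. They were 107 to 175 and 61.6 to 115 CPM in endothelial-like cells and 74.3 to 147 and 55.0 to 116 CPM in pericyte-like cells. Endothelial-like cells had 138 and 85.4 CPM of Pparg beside 265 and 513 CPM of the markers. Pericyte-like cells had 106 and 81.5 CPM beside 130 and 149 CPM. In endothelial-like cells with at least 1 adipocyte-marker UMI, 58 and 66 cells, Pparg was 166 and 105 CPM. In those with none, 122 and 96 cells, it was 122 and 68.3 CPM. These levels rest on 29 and 24 Pparg UMIs in the first group and 38 and 18 in the second, and their Poisson intervals overlapped in both libraries. The 8 markers had only 129 and 252 UMIs in endothelial-like cells, so a cell with none can still hold adipocyte transcripts. Cells with an adipocyte-marker UMI were deeper, at a median of 2749 UMIs against 2152 UMIs in those with none. In pericyte-like cells the values were 83.2 and 96.6 CPM with an adipocyte-marker UMI and 117 and 69.2 CPM without. The endothelial markers could not be separated from pericyte-like cells in this way. The part of adipocyte or endothelial transcripts in the Pparg of these classes was not tested.

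**Figure D2:**
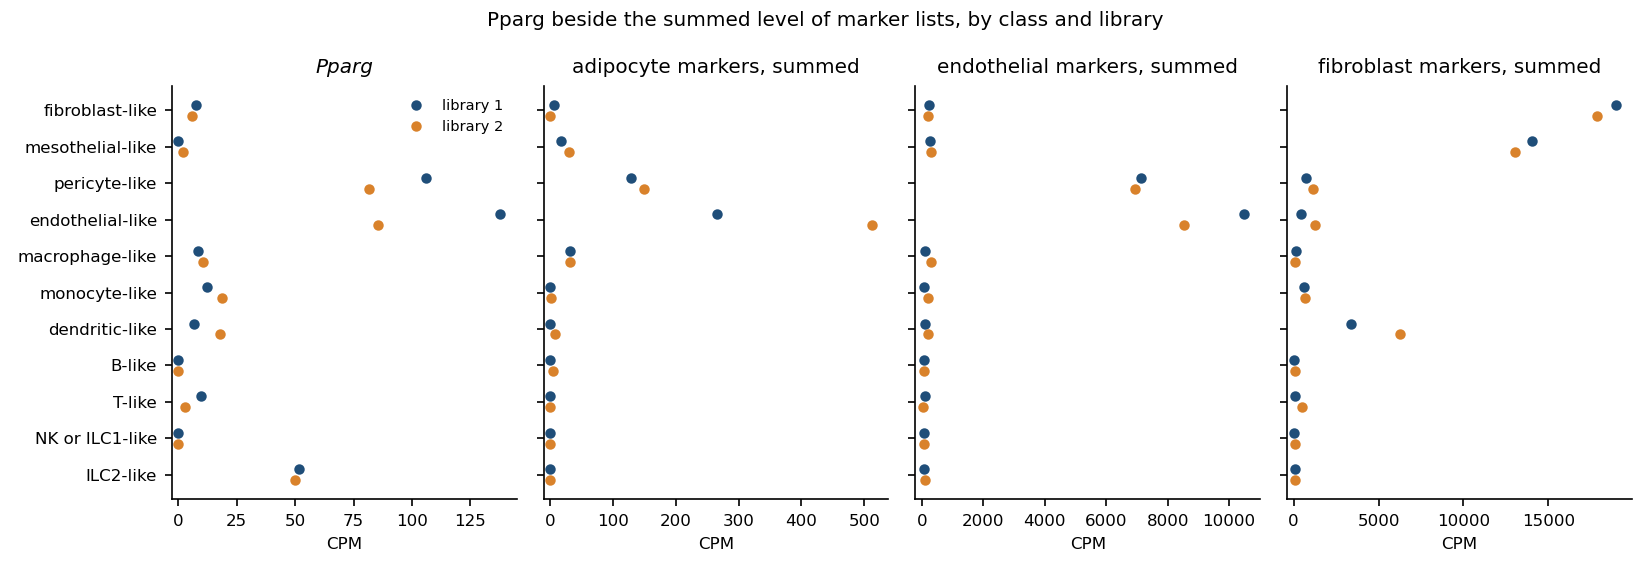
Pparg and the summed level of 8 adipocyte, 11 endothelial and 7 fibroblast markers in CPM (x axes, linear, a separate scale per panel) for 11 classes with fibroblast-like cells on top; points are the 2 libraries. The classes highest in Pparg, endothelial-like and pericyte-like, are also the highest in adipocyte and endothelial markers, while ILC2-like cells hold 51.8 and 50.0 CPM of Pparg with adipocyte markers at 0.

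Cebpa, the partner that keeps the fat cell state, was present in fibroblast-like cells at 27.7 and 19.5 CPM (23.6 ± 5.78, SD, n = 2), sixth in order. Macrophage-like cells had the highest level, 74.7 and 102 CPM, above all other classes in both libraries; C/EBPα is also a myeloid factor. Pericyte-like cells had 44.2 and 62.5 CPM and endothelial-like cells 59.7 and 46.8 CPM, and these overlapped. Monocyte-like cells at 15.6 and 51.1 CPM and dendritic-like cells at 17.1 and 33.1 CPM overlapped with fibroblast-like cells. Mesothelial-like cells were lower, at 2.23 and 3.97 CPM, and B-like, ILC2-like and NK or ILC1-like cells had 0 UMIs. Fibroblast-like cells had at least 2.94 and 1.61 times the level of B-like cells, at the limit of 3 counts per library.

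Cebpa was called lower in fibroblast-like than in macrophage-like cells at a log2 fold change of -2.04 (SE 0.33, edgeR adjusted p = 1.93e-06). It was also called lower than in endothelial-like cells at -1.06 (edgeR adjusted p = 0.00717) and pericyte-like cells at -0.97 (edgeR adjusted p = 0.0267). The first of these calls was lost in 1 of its 11 alternatives, DESeq2's Wald test, and its adjusted p ran from 0.00169 to 0.0999. The call against pericyte-like cells was lost in 3 of 10 (DESeq2's Wald test, no filter on low counts, resolution 2.0), with adjusted p from 0.0139 to 0.143. Against the mean of the other classes it was called higher at 2.08 (SE 0.52, edgeR adjusted p = 0.000871). Library 2 alone gave 0.52 and library 1 alone 1.30, with no test. Values of a library alone are differences of log2 CPM with 0.5 added to each count, without edgeR's scaling factors. Their gap from edgeR's values is therefore not only an effect of the library. The arithmetic mean of the other classes was 21.7 and 29.9 CPM, close to fibroblast-like cells, and summing these classes over cells gave a log2 fold change of -0.13 (edgeR adjusted p = 0.681).

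Cebpb, the early factor, was abundant in fibroblast-like cells and in myeloid classes. Fibroblast-like cells had 1427 and 1191 CPM (1309 ± 167, SD, n = 2) and stood behind macrophage-like cells at 1979 and 1741 CPM and monocyte-like cells at 1540 and 1584 CPM. They overlapped with ILC2-like cells at 1458 and 1124 CPM and stood above mesothelial-like cells at 1060 and 885 CPM. Pericyte-like cells had 592 and 573 CPM, endothelial-like cells 253 and 236 CPM, and B-like cells 301 and 166 CPM, the last in order. Among fibroblast-like, pericyte-like and endothelial-like cells, Cebpb was highest in fibroblast-like cells and Pparg lowest there. It was higher in fibroblast-like than in endothelial-like cells at a log2 fold change of 2.51 (SE 0.20, edgeR adjusted p = 2.66e-14) and lower than in macrophage-like cells at -0.68 (SE 0.18, edgeR adjusted p = 0.00238). Against mesothelial-like cells it was higher at 0.52 (SE 0.18, edgeR adjusted p = 0.0238), and this call was lost without the replicate block (edgeR adjusted p = 0.0855; 0.000781 to 0.0855 over 11 alternatives).

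Ebf1 and Ebf2, 2 of the early B-cell factors, were the members with the largest shares of their UMIs in fibroblast-like cells. Ebf1 had 1112 and 1277 CPM there (1194 ± 117, SD, n = 2), and its level overlapped with that of B-like cells at 1245 and 1196 CPM. Pericyte-like cells had 922 and 870 CPM and endothelial-like cells 500 and 553 CPM, each below the class before it in both libraries. Dendritic-like cells had 171 and 326 CPM and monocyte-like cells 62.5 and 99.9 CPM. T-like, ILC2-like, macrophage-like and mesothelial-like cells had at most 48.8 CPM in either library, and NK or ILC1-like cells had 0 UMIs. Fibroblast-like cells stood at least 33.4 and 27.6 times above NK or ILC1-like cells. The T-like cells of library 2, with 48.8 CPM of Ebf1, held 521 CPM of the fibroblast markers, and those of library 1, with 3.26 CPM, held 75.1 CPM. Ebf1 was higher in fibroblast-like than in pericyte-like cells at a log2 fold change of 0.59 (SE 0.23, edgeR adjusted p = 0.0405), and 0.27 in library 1 alone. This call was lost in 3 of 10 alternatives (DESeq2's Wald test, no replicate block, resolution 0.5), with adjusted p from 0.000914 to 0.388. Ebf1 was not called different from B-like cells, at a log2 fold change of -0.37 (SE 0.23, edgeR adjusted p = 0.197), which does not show that the classes are alike.

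Ebf2 was highest in fibroblast-like cells, at 126 and 121 CPM (123 ± 3.59, SD, n = 2). Pericyte-like cells followed at 38.3 and 81.5 CPM, with dendritic-like cells at 17.1 and 68.8 CPM and endothelial-like cells at 4.11 and 20.3 CPM. The libraries of fibroblast-like cells lay above those of every other class. The fibroblast markers summed to 739 and 1163 CPM in pericyte-like and 434 and 1239 CPM in endothelial-like cells, higher in library 2 as Ebf2 was, and their part was not tested. B-like, T-like, NK or ILC1-like, ILC2-like, macrophage-like and mesothelial-like cells had 0 UMIs in both libraries. At the limit of 3 counts this puts fibroblast-like cells at least 18.8 and 40.6 times above mesothelial-like cells and at least 13.4 and 9.95 times above B-like cells. Ebf2 was called higher than in pericyte-like cells at a log2 fold change of 1.24 (SE 0.30, edgeR adjusted p = 0.000828) and than in endothelial-like cells at 3.42 (SE 0.39, edgeR adjusted p = 1.91e-09). With DESeq2's Wald test the Ebf2 calls against pericyte-like, endothelial-like, macrophage-like, mesothelial-like and B-like cells were lost, with adjusted p from 0.0539 to 0.827, and no other alternative ended them. In library 2 alone the value against pericyte-like cells was 0.54.

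In dendritic-like cells Ebf1 and Ebf2 were found almost only where fibroblast transcripts were. These cells held 3372 and 6278 CPM of the 7 fibroblast markers, against 18979 and 17852 CPM in fibroblast-like cells. Dendritic-like cells with a fibroblast-marker UMI, 27 and 42 cells with a median of 5892 UMIs, had 257 and 479 CPM of Ebf1 and 25.7 and 102 CPM of Ebf2. Those with none, 20 and 39 cells with a median of 3901 UMIs, had 0 and 7.84 CPM of Ebf1, from 0 and 1 UMI, and no UMI of Ebf2.

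Ebf3 differed from its paralogues in being highest in pericyte-like and endothelial-like cells. Fibroblast-like cells had 9.80 and 15.2 CPM (12.5 ± 3.84, SD, n = 2), against 47.1 and 70.7 CPM in pericyte-like cells and 43.2 and 46.8 CPM in endothelial-like cells. Its log2 fold change in fibroblast-like cells was -2.02 (SE 0.41, edgeR adjusted p = 9.17e-05) against pericyte-like and -1.74 (SE 0.41, edgeR adjusted p = 0.000449) against endothelial-like cells. B-like, ILC2-like, NK or ILC1-like and macrophage-like cells had 0 UMIs of Ebf3. It was called higher than the mean of logarithms of the other classes at 2.69 (SE 0.62, edgeR adjusted p = 0.000357). Against the other classes summed over cells it stood at -0.03 (edgeR adjusted p = 0.954), and the arithmetic mean of the other classes was 9.70 and 13.8 CPM. Calls against macrophage-like and B-like cells, at 0 UMIs, were lost without doublet removal and with the stricter cell filter, and the first also at resolution 0.5. Over 11 alternatives each, their adjusted p ran from 0.00331 to 0.146 and from 0.00637 to 0.206.

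The remaining 2 factors were at the edge of detection. Zfp423 had 10.4 and 12.2 CPM in fibroblast-like cells (11.3 ± 1.28, SD, n = 2) from 18 and 20 UMIs, against 12.3 and 16.3 CPM in endothelial-like and 8.84 and 10.9 CPM in pericyte-like cells, from at most 8 UMIs per library. Other classes than these had at most 2 UMIs per library, so their order could not be read. Klf15 had 1.15 and 5.48 CPM in fibroblast-like cells, from 2 and 9 UMIs, against 13.4 and 20.8 CPM in mesothelial-like cells, from 6 and 21 UMIs. Mesothelial-like cells form the peritoneal surface, and they were the class with the highest Klf15 in both libraries. The other classes had at most 2 UMIs of Klf15 each. In a fit with no filter on low counts, Zfp423 was called higher in fibroblast-like cells than in the mean of the other classes at a log2 fold change of 2.99 (edgeR adjusted p = 5e-06), and Klf15 was not called at 2.13 (edgeR adjusted p = 0.0576).

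Over the comparisons, fibroblast-like cells had more members higher than lower against mesothelial-like and B-like cells, and as many higher as lower against the vessel-associated classes. Against the mean of the other classes, 5 of the 6 tested members were called higher and none lower; 31.4% of all 7725 genes tested were called higher and 18.6% lower. After summing over the cells of the other classes, all 8 members could be tested, and Cebpb, Ebf1, Ebf2 and Zfp423 were called higher and Pparg lower, beside 2478 genes higher and 2815 lower of 10855 tested. Against mesothelial-like cells all 6 were called higher, beside 14.9% of all genes higher and 19.1% lower. Against pericyte-like cells 3 were higher and 3 lower, beside 18.6% and 21.3% of all genes, and against endothelial-like cells also 3 and 3, beside 19.9% and 23.0%. Against macrophage-like cells 3 were higher and 2 lower, beside 20.7% and 21.2%. That split was 2 higher and 3 lower without doublet removal, where Pparg was called lower (edgeR adjusted p = 0.0385; 0.0385 to 0.854 over 11 alternatives), and 2 and 2 with DESeq2's Wald test, at resolution 0.5 and with the stricter cell filter. Against B-like cells 5 were higher and none lower, beside 27.2% and 22.4%. All these comparisons share the fibroblast-like sums. In both vessel-associated comparisons the 3 lower genes were Pparg, Cebpa and Ebf3, and the 3 higher ones Cebpb, Ebf1 and Ebf2. DESeq2's Wald test called 3 members against pericyte-like cells, and 3 against B-like cells. Pparg against B-like cells, which had 0 UMIs, was called at edgeR adjusted p = 0.0489 and lost in 5 of 11 alternatives (0.0333 to 0.0864). Pparg against mesothelial-like cells, at 2.12 (edgeR adjusted p = 0.0394), was lost in DESeq2's Wald test alone (0.0146 to 0.119 over 11 alternatives).

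**Figure D3:**
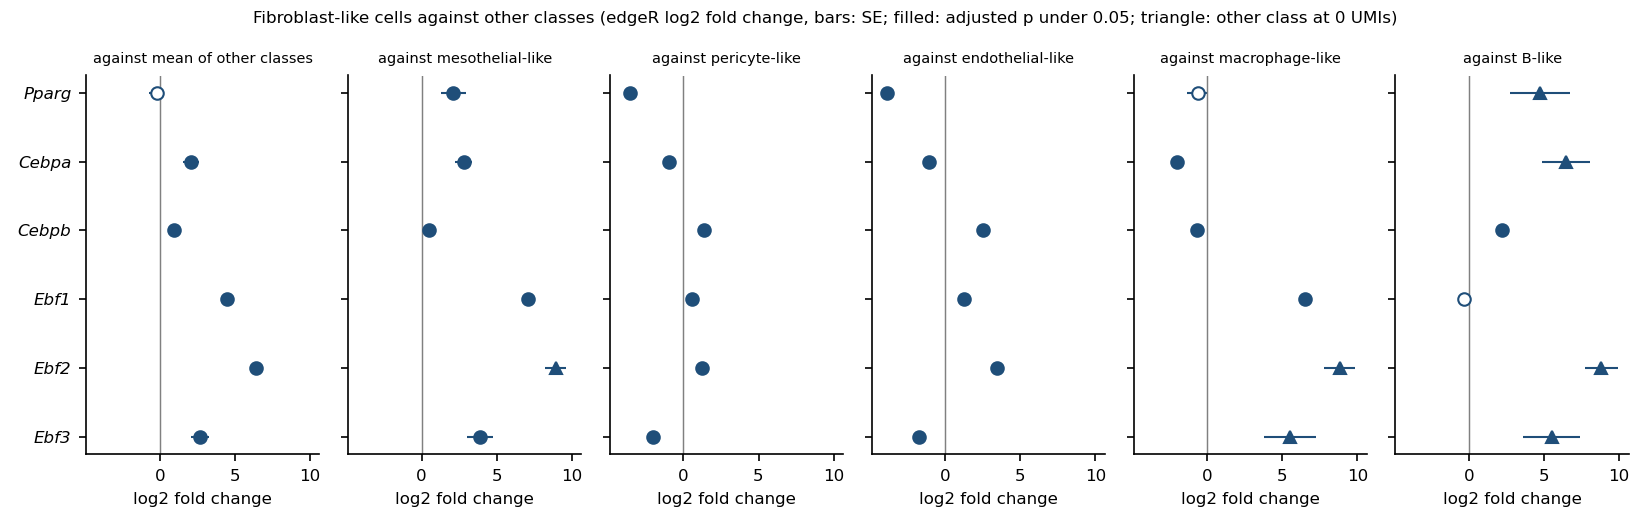
Log2 fold change (x axis) of fibroblast-like cells against the mean of the other classes and against 5 single classes for the 6 tested genes (rows); bars are standard errors, filled symbols passed an adjusted p of 0.05 and triangles mark a class with 0 UMIs, where the fitted value is no bound. Pparg, Cebpa and Ebf3 lie left of 0 against pericyte-like and endothelial-like cells, while Cebpb, Ebf1 and Ebf2 lie right of 0.

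Fibroblast-like cells fell into 4 clusters. The preadipocyte-like cluster, with Cxcl14 and Inmt among its 10 leading genes against all other cells, held 127 and 143 cells with a median of 2923 UMIs. The progenitor-like cluster, led by Pi16 and Krtdap, held 141 and 154 cells with a median of 4409 UMIs. A cluster led by Has1 and Thbs1 against all other cells held 96 and 139 cells. Against the other fibroblast-like clusters it was led by Ubash3b, Scg3 and Cish, and it passed no marker list, so it is called by Has1 and Thbs1 only as a label. A matrix-rich cluster led by Mgp and Mfap4 held 96 and 94 cells.

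Within the class, Pparg was concentrated in the preadipocyte-like cluster. That cluster held 18 of the 23 Pparg UMIs and stood at 25.4 and 21.7 CPM, against 1.49 and 1.74 CPM in the progenitor-like cluster, 5.69 and 0 CPM in the Has1 Thbs1 cluster and 0 and 3.40 CPM in the matrix-rich cluster. Its exact Poisson intervals, 12.2 to 46.7 and 9.38 to 42.8 CPM, lay above those of the progenitor-like cluster in library 1 (0.0376 to 8.28 CPM) and overlapped slightly in library 2 (0.0440 to 9.68 CPM). Pparg did not pass the filter on low counts in these clusters. With no filter, it was called higher in the preadipocyte-like than in the progenitor-like cluster at a log2 fold change of 3.65 (SE 0.88, edgeR adjusted p = 0.000572). Against the mean of the other clusters it was 3.43 (SE 0.71, edgeR adjusted p = 7.1e-05). DESeq2's Wald test called no member in either comparison, but a gene to which it gives no adjusted p counts as not called. Against the mean of the others it gave no adjusted p for Cebpa, which had 80 UMIs in fibroblast-like cells against 23 of Pparg. Its missing Pparg calls therefore cannot be read as negative tests, and both Pparg calls were made by edgeR alone. The preadipocyte-like level of Pparg stayed below that of endothelial-like cells at 138 and 85.4 CPM. The 8 adipocyte markers summed to 10.2 and 0 CPM in the preadipocyte-like cluster, with Plin1, Cidec, Lep, Adrb3 and Cidea at 0 UMIs, and Pparg stood at 21.7 CPM in library 2 where no adipocyte-marker UMI was counted.

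Zfp423 had the opposite distribution. The preadipocyte-like cluster had 0 and 2.72 CPM, from 0 and 1 UMI, against 23.8 and 13.9 CPM in the progenitor-like cluster, from 16 and 8 UMIs. The Has1 Thbs1 cluster had 2.84 and 19.8 CPM, and the matrix-rich cluster 3.16 and 10.2 CPM, so the libraries of these 2 clusters differed widely. With no filter on low counts, Zfp423 was called lower in the preadipocyte-like than in the progenitor-like cluster at a log2 fold change of -3.61 (SE 0.93, edgeR adjusted p = 0.00162). DESeq2's Wald test called no member between these clusters, where a gene with no adjusted p also counts as not called. Zfp423 and Pparg thus had their highest levels in different clusters of the class.

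**Figure D4:**
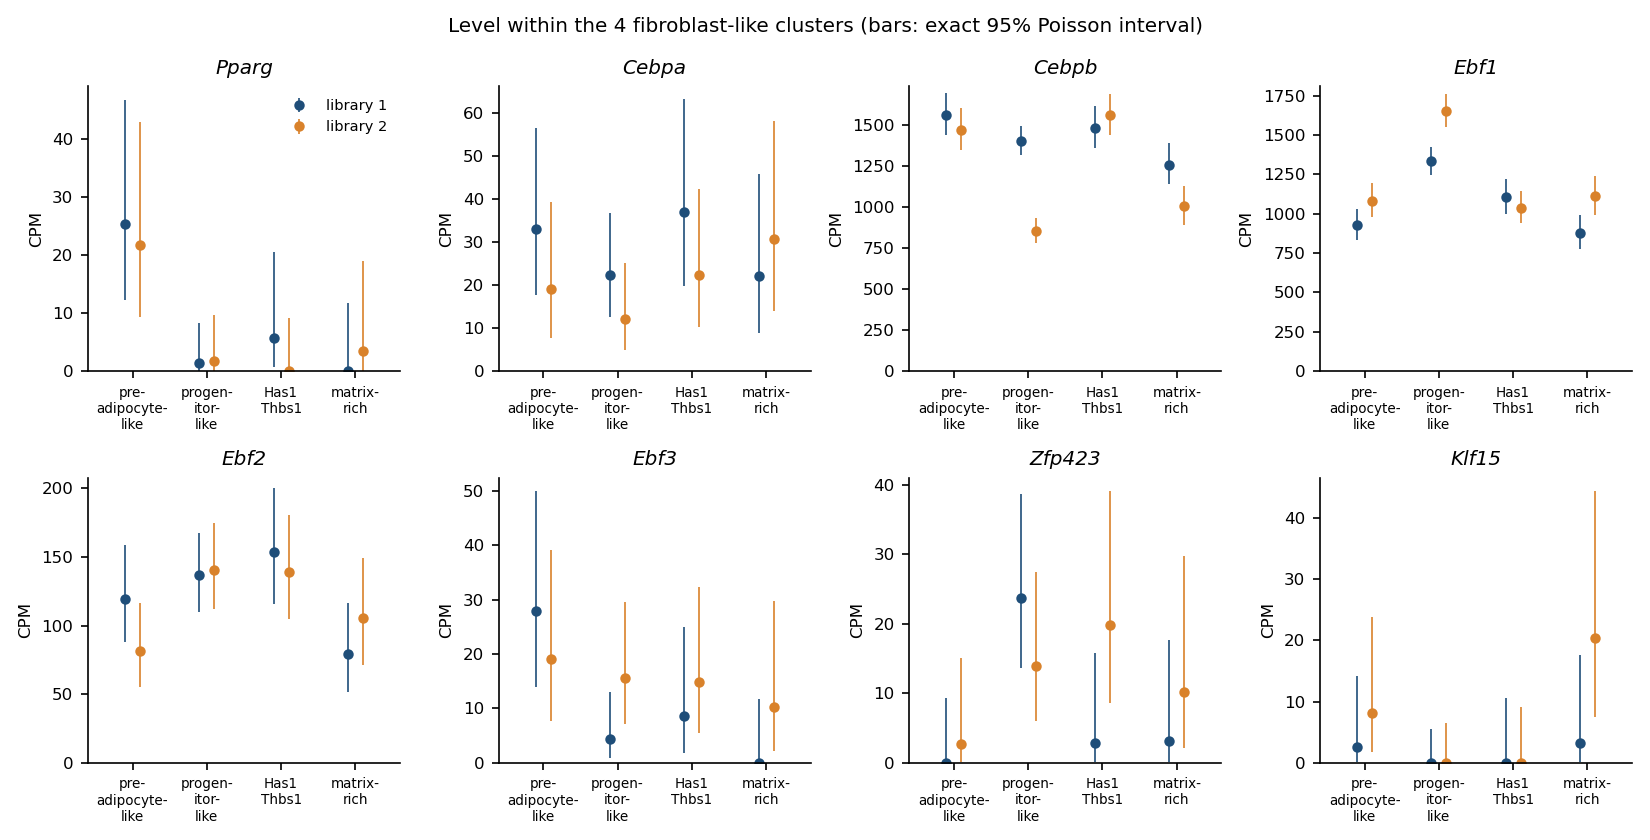
Level of the 8 genes in CPM (y axes, linear, from 0) in the 4 fibroblast-like clusters, with the preadipocyte-like cluster leftmost and the progenitor-like cluster beside it; points are the 2 libraries and bars exact 95% Poisson intervals. Pparg is at 25.4 and 21.7 CPM in the preadipocyte-like cluster and at 1.49 and 1.74 CPM in the progenitor-like one, while Zfp423 and Ebf1 are lower in the preadipocyte-like than in the progenitor-like cluster.

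Ebf1 was highest in the progenitor-like cluster. The preadipocyte-like cluster had 928 and 1081 CPM, against 1332 and 1654 CPM in the progenitor-like cluster, with 1104 and 1039 CPM in the Has1 Thbs1 cluster and 879 and 1111 CPM in the matrix-rich cluster. The progenitor-like libraries lay above those of the other 3 clusters. Ebf1 was lower in the preadipocyte-like than in the progenitor-like cluster at a log2 fold change of -0.50 (SE 0.12, edgeR adjusted p = 0.00259), a call lost with DESeq2's Wald test (adjusted p = 0.0571; 4.38e-05 to 0.0571 over 9 alternatives). In the progenitor-like cluster against the mean of the others it was higher at 0.48 (SE 0.10, edgeR adjusted p = 0.000364).

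Cebpb was higher in the preadipocyte-like cluster, at 1560 and 1469 CPM, against 1401 and 853 CPM in the progenitor-like cluster. The 2 clusters did not overlap, but the gap rested mainly on library 2. The log2 fold change was 0.51 (SE 0.14, edgeR adjusted p = 0.00618) over both libraries, 0.16 in library 1 alone and 0.78 in library 2 alone. The call was lost with DESeq2's Wald test (adjusted p = 0.0800) and in edgeR without the replicate block (adjusted p = 0.0744), and over 9 alternatives the adjusted p ran from 0.000184 to 0.0800. In the progenitor-like cluster against the mean of the others Cebpb was lower at -0.36 (edgeR adjusted p = 0.0193), at -0.03 in library 1 alone and -0.63 in library 2 alone, and this call was lost in 3 of 9 alternatives (0.00114 to 0.527). The 15 genes of the dissociation response summed to 19970 and 21852 CPM in the preadipocyte-like cluster, against 13668 and 11617 CPM in the progenitor-like cluster, and their part in the Cebpb difference was not tested. The Has1 Thbs1 cluster had 1482 and 1557 CPM of Cebpb and 17800 and 16462 CPM of these genes. The matrix-rich cluster had 1256 and 1002 CPM of Cebpb and 19042 and 21438 CPM of these genes.

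Cebpa and Ebf2 were spread over the clusters. Cebpa was at 33.0 and 19.0 CPM in the preadipocyte-like cluster, against 22.3 and 12.2 CPM in the progenitor-like cluster, with 37.0 and 22.3 CPM in the Has1 Thbs1 cluster and 22.1 and 30.6 CPM in the matrix-rich cluster. All 4 overlapped with their neighbours in order. Ebf2 was at 119 and 81.5 CPM in the preadipocyte-like cluster, against 137 and 141 CPM in the progenitor-like cluster, and at 154 and 139 CPM in the Has1 Thbs1 cluster and 79.1 and 105 CPM in the matrix-rich cluster. Neither gene was called between the preadipocyte-like and progenitor-like clusters, with log2 fold changes of 0.64 (SE 0.48) for Cebpa and -0.39 (SE 0.21) for Ebf2. Ebf3 was highest in the preadipocyte-like cluster at 28.0 and 19.0 CPM, from 11 and 7 UMIs, against 4.46 and 15.6 CPM in the progenitor-like cluster. With no filter it was not called between them, at 1.28 (edgeR adjusted p = 0.139), and it was called higher in the preadipocyte-like cluster against the mean of the others at 1.51 (SE 0.50, edgeR adjusted p = 0.0465). DESeq2's Wald test called no member in either comparison, where a gene with no adjusted p also counts as not called. Klf15 had 1 and 3 UMIs in the preadipocyte-like cluster, 1 and 6 in the matrix-rich cluster and 0 in the other 2.

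Of the 4 members tested within the class, Cebpb was called higher and Ebf1 lower in the preadipocyte-like than in the progenitor-like cluster, where 14.3% of all 5249 genes were called higher and 12.8% lower. In the progenitor-like cluster against the mean of the others, 1 was called higher and 1 lower, beside 13.3% of all genes in each direction. In the preadipocyte-like cluster against the mean of the others edgeR called none of the 4, beside 15.4% of all genes in either direction; 1 of the 4, Cebpb, had an unadjusted edgeR p under 0.05, and DESeq2's Wald test called none either. In the matrix-rich and Has1 Thbs1 clusters edgeR and DESeq2's Wald test called none, beside 6.06% and 1.94% of all genes with edgeR. In these clusters 3 and 2 of the 4 had an unadjusted p under 0.05. DESeq2's Wald test gave no adjusted p for Cebpa in the preadipocyte-like cluster, nor for Cebpa and Ebf2 in the Has1 Thbs1 cluster.

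At the level of single cells, Pparg was found in few fibroblast-like cells. After each cell was thinned to 1000 UMIs, which left out 5 and 20 shallower cells, a Pparg UMI was seen in 6 of 455 cells of library 1 (1.32%, exact 95% interval 0.485 to 2.85%) and 7 of 510 cells of library 2 (1.37%, 0.554 to 2.81%). All but 1 of these 13 cells were in the preadipocyte-like cluster, and none of the 141 and 154 progenitor-like cells had one. The share was 13.2% and 8.50% in endothelial-like cells, and 1 of 156 and 1 of 161 in T-like cells. T-like cells are no measure of background for Pparg. Their sums held 9.79 and 3.05 CPM of it, from 3 UMIs and 1 UMI, which overlapped with fibroblast-like cells at 7.50 and 6.09 CPM. Without thinning the share in fibroblast-like cells was 2.83% and 1.89%, at median depths of 3644 and 2965 UMIs, and T-like cells had median depths of 1705 and 1549 UMIs.

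Ebf1 and Cebpb were found in most fibroblast-like cells. With 1000 UMIs per cell, Ebf1 was seen in 61.3% and 66.1% of them, against 1 of 156 and 1 of 161 T-like cells. Cebpb was seen in 62.6% and 57.3%, but also in 39 of 156 and 61 of 161 T-like cells, so its UMIs do not separate the classes. Ebf2 was seen in 9.67% and 9.41% of fibroblast-like cells and in no T-like cell, and Cebpa in 2.42% and 1.57% and in no T-like cell. The thinned shares rest on single UMIs per cell and do not count expressing cells.

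Members were found together in fibroblast-like cells about as often as their single shares give. Cebpb and Ebf1 shared 171 cells in library 1, where the product of their shares gives 174.8, and 188 cells in library 2, where it gives 192.9. Ebf1 and Ebf2 shared 26 and 36 cells, where 27.0 and 31.7 are given, and Cebpa and Ebf1 shared 9 and 7, where 6.75 and 5.29 are given. A fibroblast-like cell thinned to 1000 UMIs held a UMI of 1.39 members on average in both libraries. In both libraries 11.4% of these cells held none, and 6.37% and 6.08% held 3 or more. No test was made over cells.

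Further regulators of fat cell formation were read from a list of promoting and a list of restraining ones. Of 20 promoting regulators, 17 were tested, and 7 were called higher and 2 lower than the mean of the other classes, beside 31.4% of all genes higher and 18.6% lower, with a median log2 fold change of 0.43 beside 0.04 for all genes tested. Tcf21, a factor of mesenchymal precursors of visceral fat, had 240.4 and 264 CPM in fibroblast-like cells and was higher at a log2 fold change of 6.07 (SE 0.23, edgeR adjusted p = 2.71e-25). Nfia, a factor known from brown fat, stood at 353 and 487 CPM and was higher at 3.63, and Nr1h3 and Klf9 were higher at 3.26 and 2.17. Of 16 restraining regulators, 14 were tested, and 8 were higher and 2 lower than that mean, with a median of 0.50. Against pericyte-like cells 1 of the 14 was higher and 10 lower, beside 18.6% and 21.3% of all genes, with a median of -0.95 beside -0.03. Against endothelial-like cells 2 were higher and 9 lower, beside 19.9% and 23.0%, with a median of -1.19 beside -0.05. Beside the same shares, the promoting regulators had 4 higher and 4 lower against pericyte-like cells and 5 higher and 4 lower against endothelial-like cells. Twist2, Nr2f2 and Twist1 were higher at 5.20, 3.62 and 3.54, and Gata3, a T-cell and ILC2 factor that also restrains fat cell formation, was lower at -2.75, with 1.73 and 2.44 CPM in fibroblast-like cells against 2338 and 2166 CPM in ILC2-like cells. With the other classes summed over cells, Nr2f2 stood at 0.06 and was not called (edgeR adjusted p = 0.805), and at resolution 0.5 Gata3 was not called (edgeR adjusted p = 0.0750).

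Of 18 PPARG targets and lipid genes, 14 were tested, and fibroblast-like cells had 2 higher and 5 lower than the mean of the other classes, beside 31.4% and 18.6% of all genes, with a median of -1.08 beside 0.04 for all genes. Lpl, which frees fatty acids from lipoproteins, was higher at 3.36 on the log2 scale, with 495 and 496 CPM in fibroblast-like cells, yet monocyte-like cells had 1024 and 1567 CPM. Angptl4 was higher at 2.08 but stood at -0.04 with the other classes summed over cells (edgeR adjusted p = 0.869), and Pnpla2 and Dgat2 were lower at -1.93 and -1.83. Against endothelial-like cells 1 was higher and 12 lower, beside 19.9% and 23.0% of all genes, with a median of -3.90 beside -0.05. Against B-like cells 4 were higher and none lower, beside 27.2% and 22.4% of all genes, with a median of 1.34 beside 0.11. Fabp4, the fatty-acid carrier of fat cells and capillaries, had 79.0 and 104 CPM in fibroblast-like cells, against 20679 and 13353 CPM in endothelial-like and 13318 and 8481 CPM in pericyte-like cells. Of these 18 genes, 15 were among the variable genes that shaped the clusters, so their counts describe the classes.

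Between the preadipocyte-like and progenitor-like clusters 5 of the 18 PPARG targets and lipid genes could be tested. Since 15 of the 18 were among the variable genes that shaped the clusters, the values below describe the clusters. In the preadipocyte-like cluster 4 of the 5 were higher and none lower, beside 14.3% and 12.8% of all genes, with a median log2 fold change of 1.86 beside -0.01 for all genes. Fabp4 stood at 216 and 174 CPM in the preadipocyte-like cluster, against 14.9 and 36.5 CPM in the progenitor-like cluster, a log2 fold change of 3.03 (SE 0.32, edgeR adjusted p = 9.7e-09). Lpl stood at 1006 and 899 CPM against 199 and 236 CPM, at 2.20 (SE 0.14, edgeR adjusted p = 3.73e-13). The Has1 Thbs1 cluster had 62.6 and 171 CPM of Fabp4, and in library 2 it had no Pparg UMI. Cd36, a fatty-acid uptake receptor, had 10.2 and 13.6 CPM in the preadipocyte-like cluster, against 14.2 and 24.8 CPM in the Has1 Thbs1 cluster, and was not tested. Plin2, a lipid-droplet coat protein, was higher at 1.86, and Angptl4 at 0.89, with 117 and 43.5 CPM in the preadipocyte-like cluster against 59.4 and 29.5 CPM in the progenitor-like cluster. DESeq2's Wald test did not call Plin2 (adjusted p = 0.131) or Angptl4 (adjusted p = 0.600), and in library 2 alone Plin2 stood at 0.81 and Angptl4 at 0.56.

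Among all genes tested between these clusters 14.3% were higher and 12.8% lower. Of 13 promoting regulators, 2 were higher, Tcf21 at 1.48 and Nfia at 0.87, and 1 was lower, Klf4 at -1.08; the median was 0.11. Of 11 restraining regulators, Nr2f2 was higher at 1.01, and Klf3 and Hes1, an effector of Notch signalling, were lower at -2.02 and -1.36; the median was -0.03. These regulators were kept out of the clustering. The Nr2f2 call was lost with DESeq2's Wald test (adjusted p = 0.512), and that of Nfia without doublet removal (edgeR adjusted p = 0.0516). Without doublet removal the cells were clustered anew, and the preadipocyte-like cluster held 145 cells against 270. Of 14 signalling genes of preadipocytes, 11 were tested, and 5 were higher and 1 lower, with a median of 0.96: Sfrp1, Bmp4 and Icam1 were higher at 4.31, 2.17 and 1.94, and Bmp2 was lower at -1.61. Bmp4 was not called by DESeq2's Wald test (adjusted p = 0.0933). Unlike the regulators, 5 of the 14 signalling genes were among the variable genes that shaped the clusters. Sfrp1 was among the leading genes of the preadipocyte-like cluster against all other cells. The counts of this list therefore describe the classes and clusters. Against the mean of the other classes, 9 of 11 were higher in fibroblast-like cells and none lower, beside 31.4% and 18.6% of all genes, with a median of 2.56, led by Pdgfra at 6.43, Sfrp1 at 6.34 and Pdgfrb at 5.35. Bmp2 was higher by 4.13 against that mean of logarithms, at 72.6 and 87.7 CPM, while macrophage-like cells had 109 and 341 CPM.

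**Figure D5:**
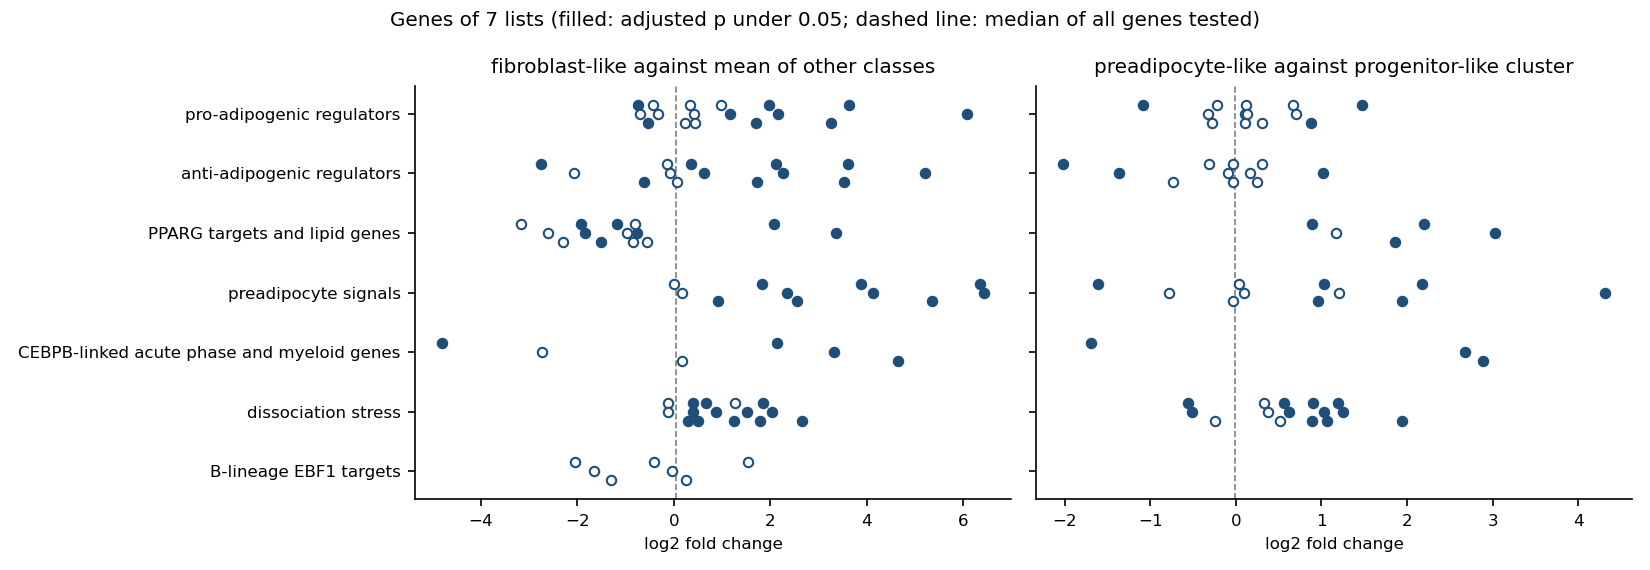
Log2 fold change (x axes) of the tested genes of 7 lists (rows) for fibroblast-like cells against the mean of the other classes (left) and for the preadipocyte-like against the progenitor-like cluster (right); each point is a gene, filled where its adjusted p was under 0.05, and the dashed line is the median of all genes tested. The 14 PPARG targets and lipid genes tested on the left have a median of -1.08, and the 5 tested on the right have a median of 1.86.

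Genes linked to Cebpb in acute-phase and myeloid responses and genes linked to Ebf1 in B cells were read beside these 2 factors. Of 6 Cebpb-linked genes tested, 3 were higher than the mean of the other classes and 1 lower, beside 31.4% and 18.6% of all genes, with Ptgs2, Il6 and Socs3 higher at 4.65, 3.32 and 2.13 and Tnf lower at -4.80. In the preadipocyte-like cluster Il6 stood at 714 and 869 CPM, against 147 and 76.4 CPM in the progenitor-like cluster, at 2.89 on the log2 scale, and Socs3 was higher at 2.68. Ptgs2, the inducible prostaglandin synthase, was lower in the preadipocyte-like cluster at -1.69. All 7 B-lineage genes linked to EBF1 were lower in fibroblast-like than in B-like cells, beside 22.4% of all genes. Their median log2 fold change was -7.60 beside 0.11 for all genes, although Ebf1 itself did not pass the test there. All 7 were among the variable genes that shaped the clusters, as were 5 of the 8 Cebpb-linked genes, so these counts describe the classes. The 15 genes of the dissociation response had 12 higher and none lower than the mean of the other classes, beside 31.4% and 18.6% of all genes, with a median of 0.88. Against endothelial-like cells 1 was higher and 10 lower, beside 19.9% and 23.0% of all genes, and against pericyte-like cells 1 and 8, beside 18.6% and 21.3%. Against mesothelial-like cells 4 were higher and 7 lower, beside 14.9% and 19.1% of all genes. The 15 genes summed to 16915 and 16864 CPM in fibroblast-like cells, against 27777 and 22961 CPM in endothelial-like cells. Between the preadipocyte-like and progenitor-like clusters 9 of them were higher and 2 lower, beside 14.3% and 12.8% of all genes, with a median of 0.62, led by Zfp36 at 1.95. Some of these genes, such as Egr1 and Zfp36, are early-response genes that digestion of tissue is known to induce, and their part in the levels of Cebpb, Il6 and Socs3 was not tested.

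The genes most like each member over the 22 sums of class and library were found among 5656 genes by Pearson's r of log2(CPM + 1). The sums share libraries and differ in depth, so r describes them only. Ebf2 was most like Postn (r = 0.93), Ecm2 (0.92) and Pla1a (0.92), and Ebf3 like Cyp26b1 (0.93), Mcf2l (0.93) and Lrrc32 (0.92). Sdc3 (0.96) and Cttnbp2nl (0.94) were among the genes most like Cebpa. For Cebpb these were Metrnl (0.91), Cstb (0.85) and Cpt1a (0.79), for Ebf1 Nid1 (0.80), Pqlc1 (0.79) and Fam43a (0.77), and for Pparg Eepd1 (0.87), Slfn5 (0.84) and Purb (0.84). Zfp423 was most like Epn2 (0.85), Pcdh19 (0.84) and Tek (0.84), and Klf15 like Iscu (0.85), Dmkn (0.83) and Clu (0.83), both from few UMIs. Among the members themselves, Ebf2 and Ebf3 were the most alike (r = 0.84), and Cebpb and Ebf1 the least (r = -0.36), over the 22 sums.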

How the data were processed

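Single-cell RNA of 2 mesenteries was measured, 1 library per mouse. Per the file headers, the authors deposited a matrix of raw UMI counts, not normalized, with genes as rows and barcodes as columns. Per the submitters' processing notes, Cell Ranger was used with mm10, without a stated version. The suffix of each barcode gives the library.

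A cell needed 200 genes and could have up to 10% mitochondrial UMIs, which removed 61 barcodes, and Scrublet in scanpy 1.11.5 removed 39 and 4 doublets at its automatic score thresholds. Median depth per barcode was 3065 and 2663 UMIs in the libraries. Leiden clustering (2000 variable genes, 30 components, 15 neighbours, resolution 1.0, seed 0; leidenalg 0.10.2) gave 17 clusters, named from markers by the highest mean log2 fold with at least 3 markers above 2-fold. The 8 factors and the other matched regulators, 43 genes in all, were held out of it.

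Counts were summed per class or cluster and library, and sums of at least 10 cells were fitted with edgeR 4.0.16 (R 4.3.3; quasi-likelihood F-test, TMM, filterByExpr). The library was a block, since the same animal gives every class, as the labels number the mice. Same-numbered sums correlated in their deviations with a median r of 0.0553 over pairs of classes and 0.109 over pairs of clusters. With 2 animals, p-values rest on how the libraries differ within classes. Calls are at a Benjamini-Hochberg adjusted p of 0.05 over all genes tested. The standard error is the log2 fold change divided by the square root of F. Levels are CPM of the summed counts; Poisson and Clopper-Pearson intervals are exact at 95%, and a count of 0 is read as up to 3 counts. These cover counting error only. On simulated counts with 200 changed genes, the fit called 16.3% of genes at a log2 fold change of 1 and 73.7% at 2 against the mean of the other classes, and 5.49% and 31.2% between the preadipocyte-like and progenitor-like clusters. False calls numbered 9 and 1. The simulated counts had a single profile for all groups, the same spread for all genes and no library effect. These shares therefore do not give the power of the real comparisons.

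Members and lists were chosen with earlier results of these data known. From each list, up to 4 called genes with the largest absolute log2 fold change are named. Cebpd is not analysed here. Alternatives were DESeq2 1.42.0 (size factors; Wald test), no filter, no block, each library alone, resolutions 0.5 and 2.0, a stricter filter of 500 genes and 5% mitochondrial UMIs, no doublet removal, regulators left in the clustering, sums of the other classes over their cells, and shares at 500 or 2000 UMIs per cell or unthinned. Fits without the pericyte-like or the dendritic-like class were added after the data were seen.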

Additional observations from a re-analysis of the deposited data

How the results depend on the processing

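With 2 animals and 1 library each, depth limits the low genes. In the main edgeR fits Zfp423 and Klf15 were tested in no comparison, and Pparg and Ebf3 not between clusters. All 8 members were tested with no filter on low counts and against the other classes summed over cells. DESeq2's Wald test gave each of the 8 a p-value but not always an adjusted p, and a missing adjusted p counts as not called. It was missing for Cebpa in the preadipocyte-like and Has1 Thbs1 clusters and for Ebf2 in the Has1 Thbs1 cluster. Without doublet removal 5 members were tested between clusters. Leaving out a library gives a value with no test, since 1 sum per class then remains. Unlike the edgeR values, it is a difference of log2 CPM with 0.5 added to each count and no TMM factors.

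The tests of the 6 members between classes and of the 4 between clusters gave 56 log2 fold changes, and all 56 kept direction and call with DESeq2 size factors. DESeq2's Wald test lost 13 calls and dropping the replicate block lost 5, with no change of direction. Without the block 1 member was called in the progenitor-like cluster against the others and 1 between the preadipocyte-like and progenitor-like clusters, against 2 in each with it. Genes called without the block were 203 in the matrix-rich and 41 in the Has1 Thbs1 cluster, against 318 and 102 with it. DESeq2's Wald test called 116 genes in the matrix-rich cluster, 40 in the Has1 Thbs1, 308 in the preadipocyte-like and 507 in the progenitor-like cluster, and 561 between the preadipocyte-like and progenitor-like clusters, against 318, 102, 809, 1397 and 1425 with edgeR. It called 1 member in the progenitor-like cluster, 0 between the preadipocyte-like and progenitor-like clusters, 3 against B-like cells and 3 against pericyte-like cells.

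With no filter on low counts, members called were 1 in the Has1 Thbs1 cluster, 2 in the preadipocyte-like cluster and 4 between the preadipocyte-like and progenitor-like clusters. Without doublet removal 2 were called in the preadipocyte-like cluster. Settings that cluster the cells anew give this name to other sets of cells. The cluster held 270 cells in the main clustering, 145 without doublet removal and 631 at resolution 0.5. At resolution 0.5, 514 genes and 1 member were called in the matrix-rich cluster, 1 member in the preadipocyte-like and 1 in the progenitor-like cluster. With the stricter cell filter 1 was called in the preadipocyte-like cluster and 3 against B-like cells.

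Signs turned in 9 cases. Against the mean of the other classes, Cebpa was -0.13 and Ebf3 -0.0254 with these classes summed over cells, and Pparg was 0.18 without the pericyte-like class and 0.0055 without the dendritic-like class. In clusters, Cebpa in the matrix-rich cluster was -0.26 with the regulators in the clustering and -0.36 with the stricter cell filter, Ebf1 in the Has1 Thbs1 cluster was 0.0299 at resolution 2.0, and in the preadipocyte-like cluster Ebf1 was 0.0346 and Ebf2 0.0383 at resolution 0.5. Of these, the main values of Cebpa and Ebf3 against the mean of the other classes were called. The cause was not tested. With library 2 alone and with library 1 alone, called values against B-like cells, at 0 UMIs, were 3.29 and 4.16 for Cebpa, 2.94 and 2.69 for Ebf3 and 1.66 and 2.31 for Pparg, against 6.45, 5.50 and 4.73 with both. Ebf3 was 3.14 and 2.81 against macrophage-like cells, against 5.53 with both, and 1.30 and 1.13 against the mean of the other classes, against 2.69. With library 2 alone Cebpa was -1.69 against pericyte-like cells and Pparg 1.37 against mesothelial-like cells. In these values the library left out and the way of computing them cannot be told apart.

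Shares of fibroblast-like cells with a UMI were higher at 2000 than at 500 UMIs for the 8 genes, and higher again unthinned for all but Pparg. At 500 UMIs, 2000 UMIs and no thinning the mean over libraries was 0.0943%, 2.41% and 2.36% for Pparg, 0.718%, 4.53% and 7.72% for Cebpa, 41.8%, 78.5% and 82.9% for Cebpb, 41.9%, 84.4% and 89.2% for Ebf1 and 7.19%, 20.9% and 30.4% for Ebf2. Zfp423 was at 0.812% with 500 UMIs and 0.636% with 1000 UMIs. At 2000 UMIs and no thinning the mean was 2.62% and 4.00% for Ebf3, 1.64% and 3.55% for Zfp423 and 0.789% and 1.07% for Klf15. The ratio of observed to expected cells with both Cebpb and Ebf1 was 0.934, 0.996 and 1.02 in that order.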
